A study of Mus musculus with 185 samples.

Results

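The genes of oxidative phosphorylation were taken by name from the deposited expression table. A gene was a member if its symbol began with Nduf, a letter out of a, b, c, s and v, and a digit, if it was Sdha, Sdhb, Sdhc or Sdhd, if it began with Uqcr or Atp5, or if it was Cox with a digit from 4 to 8 and at most a letter out of a, b and c and a number after it. The rule found 79 members among 17171 genes, and each was followed in all 185 cells, 9 classes and 4 captures of the table. By the complex they belong to, 35 members are subunits of complex I, 4 of complex II, 8 of complex III, 15 of complex IV and 15 of complex V. The remaining 2, Atp5s and Atp5sl, carry the name of the ATP synthase without being subunits of it. Ndufa4 and its paralogue Ndufa4l2 were counted with complex IV, because Ndufa4 is a component of cytochrome c oxidase.

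Oxidative phosphorylation passes electrons from NADH and succinate through complexes I to IV to oxygen, and complex V uses the proton gradient that these electrons build to make ATP. Nearly all of its subunits are encoded in the nucleus, and a small core is encoded in mitochondrial DNA. Cardiac myocytes depend on it for contraction, and fibroblasts of the heart carry fewer mitochondria and also rely on glycolysis.

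The study traced fibroblasts of the adult mouse heart through myocardial infarction with Cre drivers in Postn, the gene of the matrix protein periostin, and in Tcf21, a transcription factor gene of resident cardiac fibroblasts. In Postn MCM/+; R26-eGFP and Tcf21 MCM/+; R26-eGFP mice, tamoxifen chow activated a MerCreMer recombinase that switched on eGFP for good. The Postn cassette sits at the start of the gene, so cells of the Postn MCM/+ mice, traced or not, have 1 intact Postn allele. Cells negative for CD31 and CD45, markers of endothelium and blood cells, were captured singly on a Fluidigm C1 instrument, amplified with SMARTer chemistry and sequenced after Nextera tagmentation. All mice were about 5 months old and backcrossed to C57BL/6, and the labels do not give the genotype or the mouse of a cell.

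Capture Jul24 held 33 cells of uninjured hearts, of which 17 were resident Tcf21-traced cells and 12 resident CD31-CD45- cells without Postn. It also held 3 Tcf21+ cells with Postn, whose label names no trace, and 1 CD31-CD45- cell with Postn. The study describes such control CD31-CD45- cells both as cells of uninjured hearts and as cells of a remote region, and they are called uninjured here. The other captures held activated cells, taken a week after infarction. Capture Jul29 held 57 of them, 27 Postn-traced, 24 Postn-negative and 6 Postn-positive cells whose label names no trace, called untraced Postn-positive here. Capture Nov4 held 63, of which 44 were Tcf21-traced and 19 untraced Postn-positive, and capture Nov11 held 32, of which 29 were untraced cells from the scar and 3 untraced Postn-positive. Because no label names the mouse of a cell, each class is 1 sample. No test was run, standard deviations (SD) between cells describe the cells alone, and a difference is called when it passes 1 log2 unit.

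The values are TPM, a transcript measure corrected for transcript length that sums to about 1000000 over a cell, on the scale log2(TPM+1). A gene counts as detected where it exceeds 5 TPM. Read totals per cell are unknown, so the number of genes detected outside the members stands in for depth. It ran from 141 to 5347 genes per cell with a median of 2724. By capture its median was 2209 in Jul24, 2663 in Jul29, 3239 in Nov4 and 3134.5 in Nov11. In capture Nov11, 7 cells stood apart, 6 of them scar cells and 1 an untraced Postn-positive cell. They had between 141 and 1522 other genes detected, below 50% of their capture's median, and between 0 and 38 members, with 6 of the 7 below 10 members. A further scar cell, with 1794 genes and 7 members, lies above that limit and was not left out. Values of scar cells rest on all 29 cells unless given without the 6.

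At least 3 of 6 fibroblast markers were detected in 180 of 185 cells (97.3%, exact 95% interval 93.8 to 99.1, which covers counting error only, here and below), with Dcn the most abundant. The 5 cells without them were 4 of the 29 scar cells and 1 resident CD31-CD45- cell. These 4 were among the 6 scar cells that stood apart. In the other 23 scar cells Col1a1, Col1a2, Col3a1 and Dcn were each detected in 23. At least 3 of 6 cardiomyocyte markers were detected in 1 cell, an activated Postn-negative one. No cell had 3 of 5 endothelial markers, which allows a share of up to 1.97%. A myeloid list reached 3 of 6 genes in 1 cell, a resident CD31-CD45- cell, an epicardial list in 1 cell and a pericyte list in 3 cells. The smooth muscle list reached it in 21 cells, among them 10 of 44 activated Tcf21-traced cells, 6 of 28 untraced Postn-positive, 3 of 27 Postn-traced and 2 of 29 scar cells. None of the 17 resident Tcf21-traced, 12 resident CD31-CD45- or 24 activated Postn-negative cells reached it, and Tagln was its most abundant gene over all cells. Single genes of these lists were found more often, Tagln in 36.8%, Acta2 in 34.1% and Smtn in 32.4% of cells, and Tek of the endothelial list in 25.4%. The summed level of the smooth muscle list had a median of 257 TPM in Postn-traced, 266 in untraced Postn-positive, 129 in activated Tcf21-traced and 42 in scar cells, against 4.34 in Postn-negative, 1.30 in resident Tcf21-traced and near 0 in resident CD31-CD45- cells. Myh11, Cnn1 and Lmod1 of that list were at 0 in all cells of these last 3 classes. Over classes of at least 10 cells, the median of the fibroblast list lay between 14041 TPM in activated Tcf21-traced and 20282 TPM in resident CD31-CD45- cells. The part of either list in the results below was not tested.

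All 79 members matched a RefSeq mouse gene, 76 by symbol and 3 by an older name, and 0 of them lay on the mitochondrial chromosome. They were spread over 19 chromosomes, with 3 members on X. RefSeq promoter windows of 250 bases before and 50 after the start (GRCm38.p6) were given for 67 members. On either strand, 16 of the 67 windows (23.9%) held the motif searched for nuclear respiratory factor NRF1 (GCGC, any base, then TGCGC), against 4.78% of all 27025 windows. That of YY1, AAGATGGCG, was in 7 member windows (10.4%), against 1.49% of all. That of the ETS family, to which GABP belongs, CCGGAAGT, was in 5 (7.46%), against 4% of all. Member windows were also richer in bases G and C, at a median of 57.3% against 52.7%, and held a median of 19 CpG pairs against 7, so the motifs, which are themselves rich in CpG, were counted in windows of unlike composition. A match in letters is a description and not evidence of binding.

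The windows of 4 members are shown because they hold the motifs that recurred over the complexes, in capitals, and each is read 5′ to 3′ on the minus strand. Cox6a1 (chr5:115348909-115349208), the most abundant member by mean log2 level, holds the NRF1 motif at a pair of places. Atp5h (chr11:115419870-115420169), a subunit of the stalk of complex V, holds an NRF1 and an ETS motif. Ndufa6 (chr15:82354242-82354541), an accessory subunit of complex I, holds an NRF1 motif, and Ndufc1 (chr3:51408906-51409205), another, a YY1 motif.
Cox6a1: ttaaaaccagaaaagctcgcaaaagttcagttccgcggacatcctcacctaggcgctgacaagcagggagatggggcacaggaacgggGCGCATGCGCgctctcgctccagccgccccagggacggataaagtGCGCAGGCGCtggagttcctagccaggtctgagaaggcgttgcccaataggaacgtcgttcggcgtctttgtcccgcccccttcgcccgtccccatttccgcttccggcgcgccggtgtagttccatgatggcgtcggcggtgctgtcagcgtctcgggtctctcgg
Atp5h: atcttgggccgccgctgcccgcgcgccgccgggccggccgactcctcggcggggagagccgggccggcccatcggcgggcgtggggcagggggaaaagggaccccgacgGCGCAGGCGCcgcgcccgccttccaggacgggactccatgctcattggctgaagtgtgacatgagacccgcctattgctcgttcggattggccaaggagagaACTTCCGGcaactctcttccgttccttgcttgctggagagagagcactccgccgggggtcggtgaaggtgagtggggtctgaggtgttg
Ndufa6: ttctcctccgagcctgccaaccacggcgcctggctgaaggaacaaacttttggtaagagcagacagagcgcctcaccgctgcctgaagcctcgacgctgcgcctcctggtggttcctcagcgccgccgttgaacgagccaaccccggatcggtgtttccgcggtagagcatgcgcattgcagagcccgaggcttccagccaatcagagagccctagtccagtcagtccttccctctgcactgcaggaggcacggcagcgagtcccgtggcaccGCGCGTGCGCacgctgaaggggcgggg
Ndufc1: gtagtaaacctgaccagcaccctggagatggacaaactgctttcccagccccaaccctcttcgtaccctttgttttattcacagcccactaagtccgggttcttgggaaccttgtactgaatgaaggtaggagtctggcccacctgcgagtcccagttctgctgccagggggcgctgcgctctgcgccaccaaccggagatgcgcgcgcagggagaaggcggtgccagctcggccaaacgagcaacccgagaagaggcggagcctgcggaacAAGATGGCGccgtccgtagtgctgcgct

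As a group the members were among the abundant messages of these cells. The median of their mean levels was 5.53 log2(TPM+1), against 0.62 for the 15733 genes detected in at least 1 cell, a list that includes all 79 members. The median member was detected in 70.8% of cells, against 9.73% for the median gene. Of the 79, 63 were detected in at least 50% of cells, as were 1645 genes in all, and 53 were among the 1000 genes of highest mean level. Complex V had the highest median level on this per-length scale, 6.77, followed by complex III with 6.56, complex IV with 5.60, complex I with 5.05 and complex II with 3.54. All 15 members of complex V, but 2 of 4 of complex II, were detected in at least 50% of cells.

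In the single cell, members detected ran from 0 to 75 with a median of 53, and together they took a median of 2.52% of all TPM, from 0 to 5.57%. Among resident Tcf21-traced cells the members detected ran from 32 to 52 with a median of 43, and among resident CD31-CD45- cells from 29 to 49 with a median of 41. Activated Postn-negative cells had 26 to 75 with a median of 45.5. Medians were higher in the other activated classes, with 62 in Postn-traced cells (25 to 72), 63 in Tcf21-traced cells (32 to 73), 59 in untraced Postn-positive cells (8 to 72) and 56 in scar cells (0 to 71). The ranges of all 7 of these classes overlapped. The 3 resident Tcf21+ cells with Postn had 42, 43 and 56 members, and the lone resident CD31-CD45- cell with Postn had 43. Without the cells that stood apart, the median was 58 in scar cells and 60 in untraced Postn-positive cells.

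**Figure D1:**
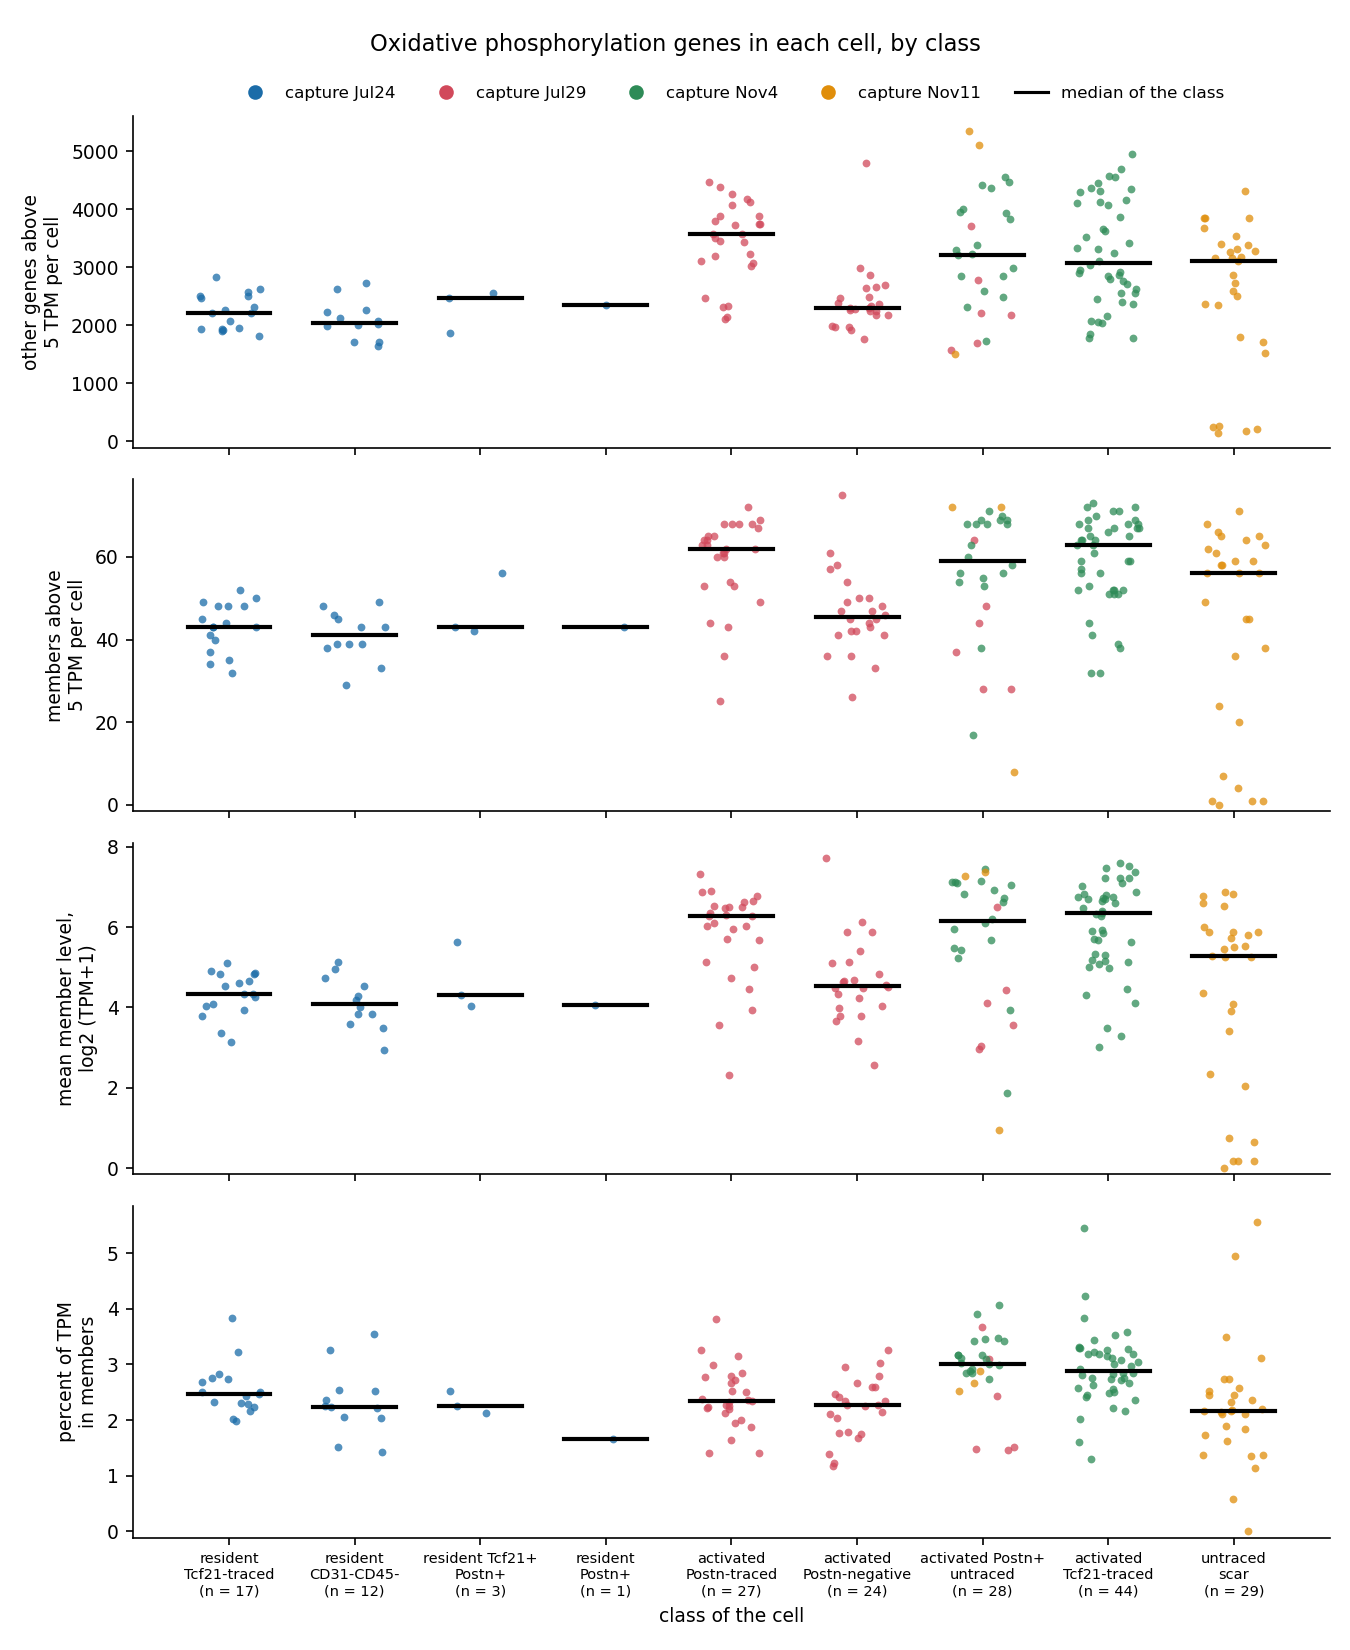
Other genes above 5 TPM, members above 5 TPM, mean member level in log2(TPM+1) and percent of TPM in members for each of the 185 cells, by class and capture, with the median of each class. The 7 cells with fewer than 10 members, all of capture Nov11, lie at the bottom of the scar and untraced Postn-positive classes in members detected.

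The share of TPM separated the classes less and ordered them differently. Its median was 2.46% in resident Tcf21-traced cells (1.99 to 3.83), 2.24% in resident CD31-CD45- cells (1.43 to 3.55), 2.35% in activated Postn-traced cells (1.40 to 3.82) and 2.26% in activated Postn-negative cells (1.17 to 3.25). It was 2.88% in activated Tcf21-traced cells (1.29 to 5.45), 3.01% in untraced Postn-positive cells (1.47 to 4.07) and 2.16% in scar cells (0 to 5.57), or 2.18% without the cells that stood apart. The higher medians belonged to capture Nov4, whose cells together had a median of 3.02%, against 2.32% in Jul24, 2.32% in Jul29 and 2.19% in Nov11. Untraced Postn-positive cells, the class found in 3 captures, had medians of 1.97% in Jul29 (6 cells), 3.12% in Nov4 (19 cells) and 2.67% in Nov11 (3 cells), so the share differed between captures under the same label. The traced cells beside them carried the Postn trace in Jul29 and the Tcf21 trace in Nov4. Capture and mouse line therefore cannot be told apart in this class. By complex the medians over all cells were 0.883% for complex I, 0.680% for complex V, 0.594% for complex IV, 0.303% for complex III and 0.0583% for complex II.

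Cells with more other genes detected had a higher mean member level. Pearson's r was 0.88 (Spearman's rho 0.89) over the 185 cells, which share captures and library preparation in groups. Within captures r was 0.58 over 33 cells in Jul24, 0.87 over 57 in Jul29, 0.84 over 63 in Nov4 and 0.92 over 32 in Nov11, or 0.80 in Nov11 without the cells that stood apart. Within classes of at least 10 cells it ran from 0.55 in resident Tcf21-traced cells and 0.61 in resident CD31-CD45- cells to 0.86 in activated Tcf21-traced cells and 0.92 in scar cells, the last 0.81 without the cells that stood apart. The share of TPM in members followed it less, with r = 0.28 over all cells, 0.06 in Jul24, 0.30 in Jul29, 0.21 in Nov4 and 0.15 in Nov11, the last 0.36 without those cells. The mean level of all other genes had r = 0.997 with the number of other genes detected over all cells.

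**Figure D2:**
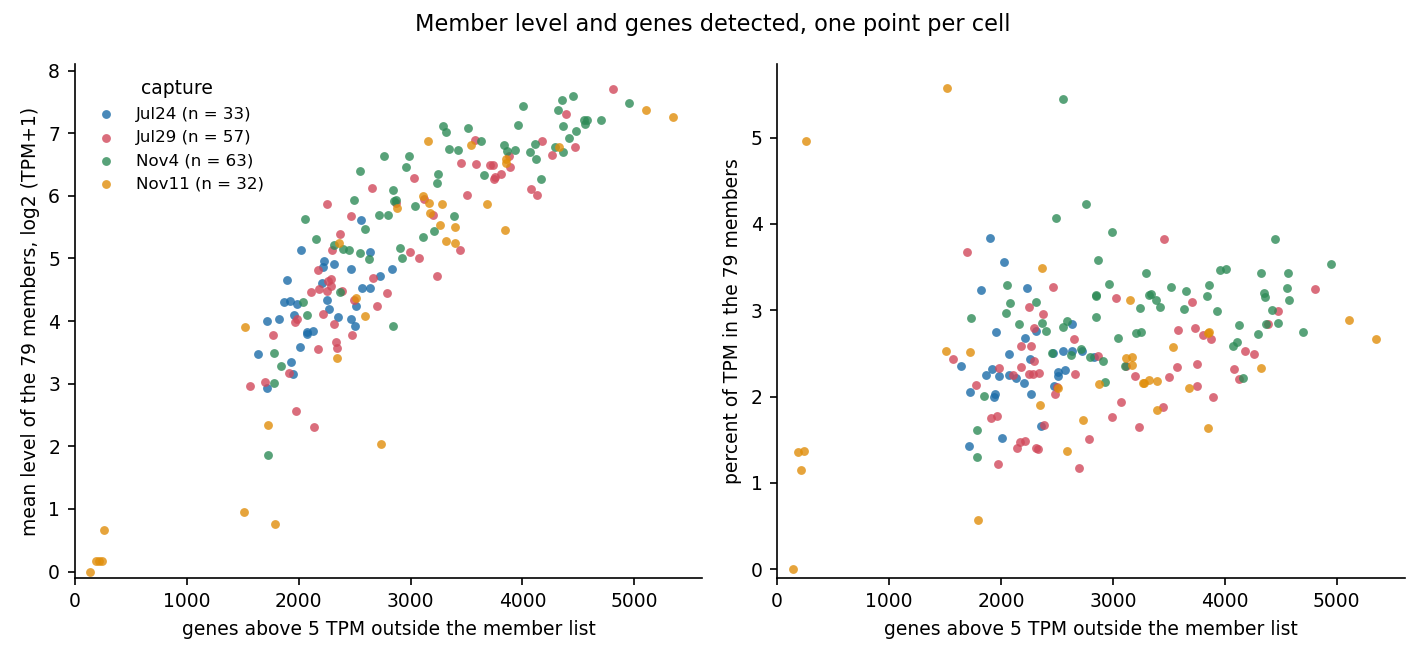
Mean level of the 79 members in log2(TPM+1) against the number of other genes above 5 TPM, 1 point per cell, by capture, beside the percent of TPM in members against the same number. The mean level is higher in cells with more genes detected (r = 0.88 over 185 cells) and the percent of TPM follows it less (r = 0.28).

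Taken singly, members followed the number of genes detected somewhat more than common genes, a list that includes them, but not in Jul24. Over all cells the median r of the 63 common members with genes detected was 0.45, from 0.16 for Ndufa4l2 to 0.58 for Ndufa8, an accessory subunit of complex I, against a median of 0.37 over the 1645 common genes. Pairs of these members had a median r of 0.24, against 0.14 for pairs of common genes. In Jul24, whose cells differ least in genes detected, the medians for pairs were 0.02 and 0.02. Singly, members and common genes had medians of 0.09 and 0.13 with genes detected in Jul24, 0.35 and 0.26 in Jul29, 0.36 and 0.29 in Nov4 and 0.67 and 0.58 in Nov11, or 0.43 and 0.32 without the cells that stood apart. The medians for pairs were 0.15 against 0.07 in Jul29, 0.19 against 0.08 in Nov4 and 0.50 against 0.34 in Nov11, or 0.30 against 0.12 without those cells.

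Complex I takes electrons from NADH. Its 7 catalytic core subunits of the table, among them Ndufs1, Ndufs8 and Ndufv2, which carry iron-sulfur centres, had a median of mean levels of 3.47 log2(TPM+1) and were detected in a median of 49.2% of cells. The other 28 members, accessory subunits that surround the core, stood higher at 5.40 and 69.2%. Ndufa3, a small accessory subunit, had the highest mean of the complex, 6.93, and was detected in 83.2% of cells. Ndufs1, the largest core subunit, had the lowest, 2.08, and was detected in 31.4% (24.7 to 38.6). By class the median of the 35 members was 3.85 in resident Tcf21-traced and 4.39 in resident CD31-CD45- cells, 4.28 in activated Postn-negative and 4.15 in scar cells, or 4.93 in the 23 scar cells left without the 6. It was 5.39 in Postn-traced, 5.45 in untraced Postn-positive and 6.10 in activated Tcf21-traced cells.

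Ndufa2, an accessory subunit with a thioredoxin-like fold, varied more between classes. In activated Postn-traced cells it ran from 3.28 to 11.32 log2(TPM+1) with a median of 8.34, and it was detected in 27 of 27 cells. In activated Postn-negative cells it ran from 0 to 10.02 with a median of 1.55, in 12 of 24 cells. In resident Tcf21-traced cells the median was 0 and the highest value 9.59, in 7 of 17 cells, and in resident CD31-CD45- cells the median was 5.43, in 8 of 12. Medians were 8.37 in untraced Postn-positive (24 of 28 cells), 7.37 in activated Tcf21-traced (37 of 44) and 6.49 in scar cells (21 of 29), or 6.94 without the 6 (20 of 23). Levels overlapped between these classes. Ndufs8, a core subunit with iron-sulfur centres, had a median of 8.08 in activated Tcf21-traced cells (0 to 10.79, 35 of 44 cells) and 0 in scar cells (0 to 9.72, 12 of 29 cells), or 3.83 without the 6 cells (12 of 23).

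Complex II, succinate dehydrogenase, joins the citric acid cycle to the chain. Its flavoprotein Sdha was detected in 84 of 185 cells (45.4%, 38.1 to 52.9), its iron-sulfur subunit Sdhb in 131 (70.8%, 63.7 to 77.2), and the membrane anchors Sdhc and Sdhd in 85 (45.9%, 38.6 to 53.4) and 97 (52.4%, 45 to 59.8). Sdhb had the highest mean level of the complex, 5.52, and by class it ran from 2.78 in resident CD31-CD45- and 3.56 in resident Tcf21-traced cells to 6.52 in activated Tcf21-traced, 6.61 in Postn-traced and 6.75 in untraced Postn-positive cells. Sdhc was the sparsest in uninjured hearts, where it was detected in 2 of 17 Tcf21-traced and 2 of 12 CD31-CD45- cells, at class means of 0.96 and 1.59. In activated cells it was detected in 26 of 44 Tcf21-traced, 15 of 27 Postn-traced, 15 of 28 untraced Postn-positive, 9 of 24 Postn-negative and 14 of 29 scar cells, or 13 of 23 without the 6. Its mean TPM was 8.77 in resident Tcf21-traced and 129 in resident CD31-CD45- cells. In activated classes it was 163 in Tcf21-traced, 133 in Postn-traced, 57.6 in untraced Postn-positive, 179 in Postn-negative and 105 in scar cells. The classes overlapped in Sdhc, whose highest value was 6.75 log2(TPM+1) in resident Tcf21-traced and 9.71 in activated Tcf21-traced cells, while each class held cells at 0.

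Complex III passes electrons from ubiquinol to cytochrome c. Uqcrb, which lines the quinone pocket, had the highest mean of its 8 members, 7.84, and was detected in 166 of 185 cells. The Rieske iron-sulfur protein Uqcrfs1, the catalytic subunit in the list, had the lowest, 2.53, in 77 cells. Class means of Uqcrb were 7.85 in resident Tcf21-traced, 6.09 in resident CD31-CD45-, 8.89 in Postn-traced, 7.70 in Postn-negative, 8.18 in untraced Postn-positive, 8.50 in activated Tcf21-traced and 6.25 in scar cells, or 7.65 without the 6 cells. It was detected in 21 of 29 scar cells, or 20 of 23, and in 10 of 12 resident CD31-CD45- cells.

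Complex IV, cytochrome c oxidase, has subunits with isoforms of muscle and testis. Of the summed TPM over all cells, Cox6a1 took 99.9% of the Cox6a pair, Cox8a 99.5% of Cox8a and Cox8b, Cox6b1 96.6% of the Cox6b pair and Cox7a2 94.9% of the Cox7a pair. Classes differed in the last, as Cox7a1 took 19.6% in Postn-negative (1 cell with it), 14.1% in resident Tcf21-traced (2 cells), 9.52% in untraced Postn-positive (2 cells) and 0% in resident CD31-CD45- and scar cells. Cox6a1 had the highest mean of all members, 9.79, placed 84 among all genes, and was detected in 169 of 185 cells (91.4%, 86.3 to 95). By class it was detected in 17 of 17 resident Tcf21-traced, 11 of 12 resident CD31-CD45-, 24 of 27 Postn-traced, 23 of 24 Postn-negative, 44 of 44 activated Tcf21-traced, 24 of 28 untraced Postn-positive and 22 of 29 scar cells, or 21 of 23 without the 6. Its medians in these classes lay between 10.57 and 11.39, close together.

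The muscle isoforms were detected in 11 cells in all. Cox7a1 was above 5 TPM in 7 cells at 128 to 862 TPM, 2 of them resident Tcf21-traced, 2 untraced Postn-positive and 1 each Postn-traced, Postn-negative and activated Tcf21-traced. In these 7 cells all 6 cardiomyocyte markers summed to 0 TPM. Cox8b was found in 2 cells, 1 resident CD31-CD45- and 1 activated Postn-negative, again with no cardiomyocyte marker detected. Cox6a2 was found in 2 cells. An activated Postn-negative cell had it at 359 TPM together with 4 of 6 cardiomyocyte markers, which summed to 150 TPM, and an activated Tcf21-traced cell had it at 13.2 TPM with none of them. Cox6b2, the testis isoform, was detected in 16 cells, 7 of them activated Tcf21-traced and 4 Postn-traced, and each of the 16 also had Cox6b1. Cox8c was not analysed here.

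Ndufa4 and Ndufa4l2 shared their signal more evenly. Ndufa4 was detected in 145 cells and Ndufa4l2, a paralogue induced by hypoxia, in 101, with 83 cells holding both, 62 Ndufa4 alone and 18 Ndufa4l2 alone. Ndufa4 had medians of 8.59 log2(TPM+1) in resident Tcf21-traced cells (0 to 10.85, 15 of 17 cells) and 0 in resident CD31-CD45- cells (0 to 7.76, 4 of 12 cells). In the activated classes its medians were 8.56 in Postn-traced (26 of 27), 6.74 in Postn-negative (19 of 24), 8.64 in untraced Postn-positive (20 of 28), 8.81 in Tcf21-traced (42 of 44) and 7.06 in scar cells (17 of 29), or 8.85 without the 6 (16 of 23). Resident CD31-CD45- cells thus stood low in Ndufa4, with cells that overlapped the other classes at their lower end. Ndufa4l2 was detected in 12 of 17 Tcf21-traced and 8 of 12 CD31-CD45- cells of uninjured hearts, and after infarction in 17 of 27 Postn-traced, 17 of 28 untraced Postn-positive, 25 of 44 Tcf21-traced, 11 of 24 Postn-negative and 9 of 29 scar cells, or 8 of 23 without the 6. In resident CD31-CD45- cells it took 90.2% of the summed TPM of the pair, against 38.2% in resident Tcf21-traced and 32.3% in activated Tcf21-traced cells.

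Complex V, the ATP synthase, was the most evenly detected. Each of its 15 members was found in at least 131 of the 185 cells, and Atp5l, a subunit of the membrane part, led with a mean of 8.25 in 168 cells. The genes Atp5g1, Atp5g2 and Atp5g3 encode the same mature subunit c of the rotor and took 29.9%, 28% and 42.1% of their summed TPM, and 109 cells held all 3. Atp5g2 took 8.16% in resident Tcf21-traced and 36.2% in resident CD31-CD45- cells, and between 25.7% in scar and 32.7% in Tcf21-traced cells over the activated classes. Its median was 0 in resident Tcf21-traced cells (0 to 8.36, 7 of 17 cells) and 8.76 in activated Tcf21-traced cells (0 to 10.31, 38 of 44 cells). Both classes included cells without it. Atp5g2 had medians of 3.70 in resident CD31-CD45- cells, 6.23 in Postn-negative, 7.84 in Postn-traced, 8.02 in untraced Postn-positive and 6.65 in scar cells, or 7.77 without the 6. Atp5s, a mitochondrial factor tied to the synthase, and Atp5sl, an assembly factor of complex I, were detected in 22 and 12 cells.

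**Figure D3:**
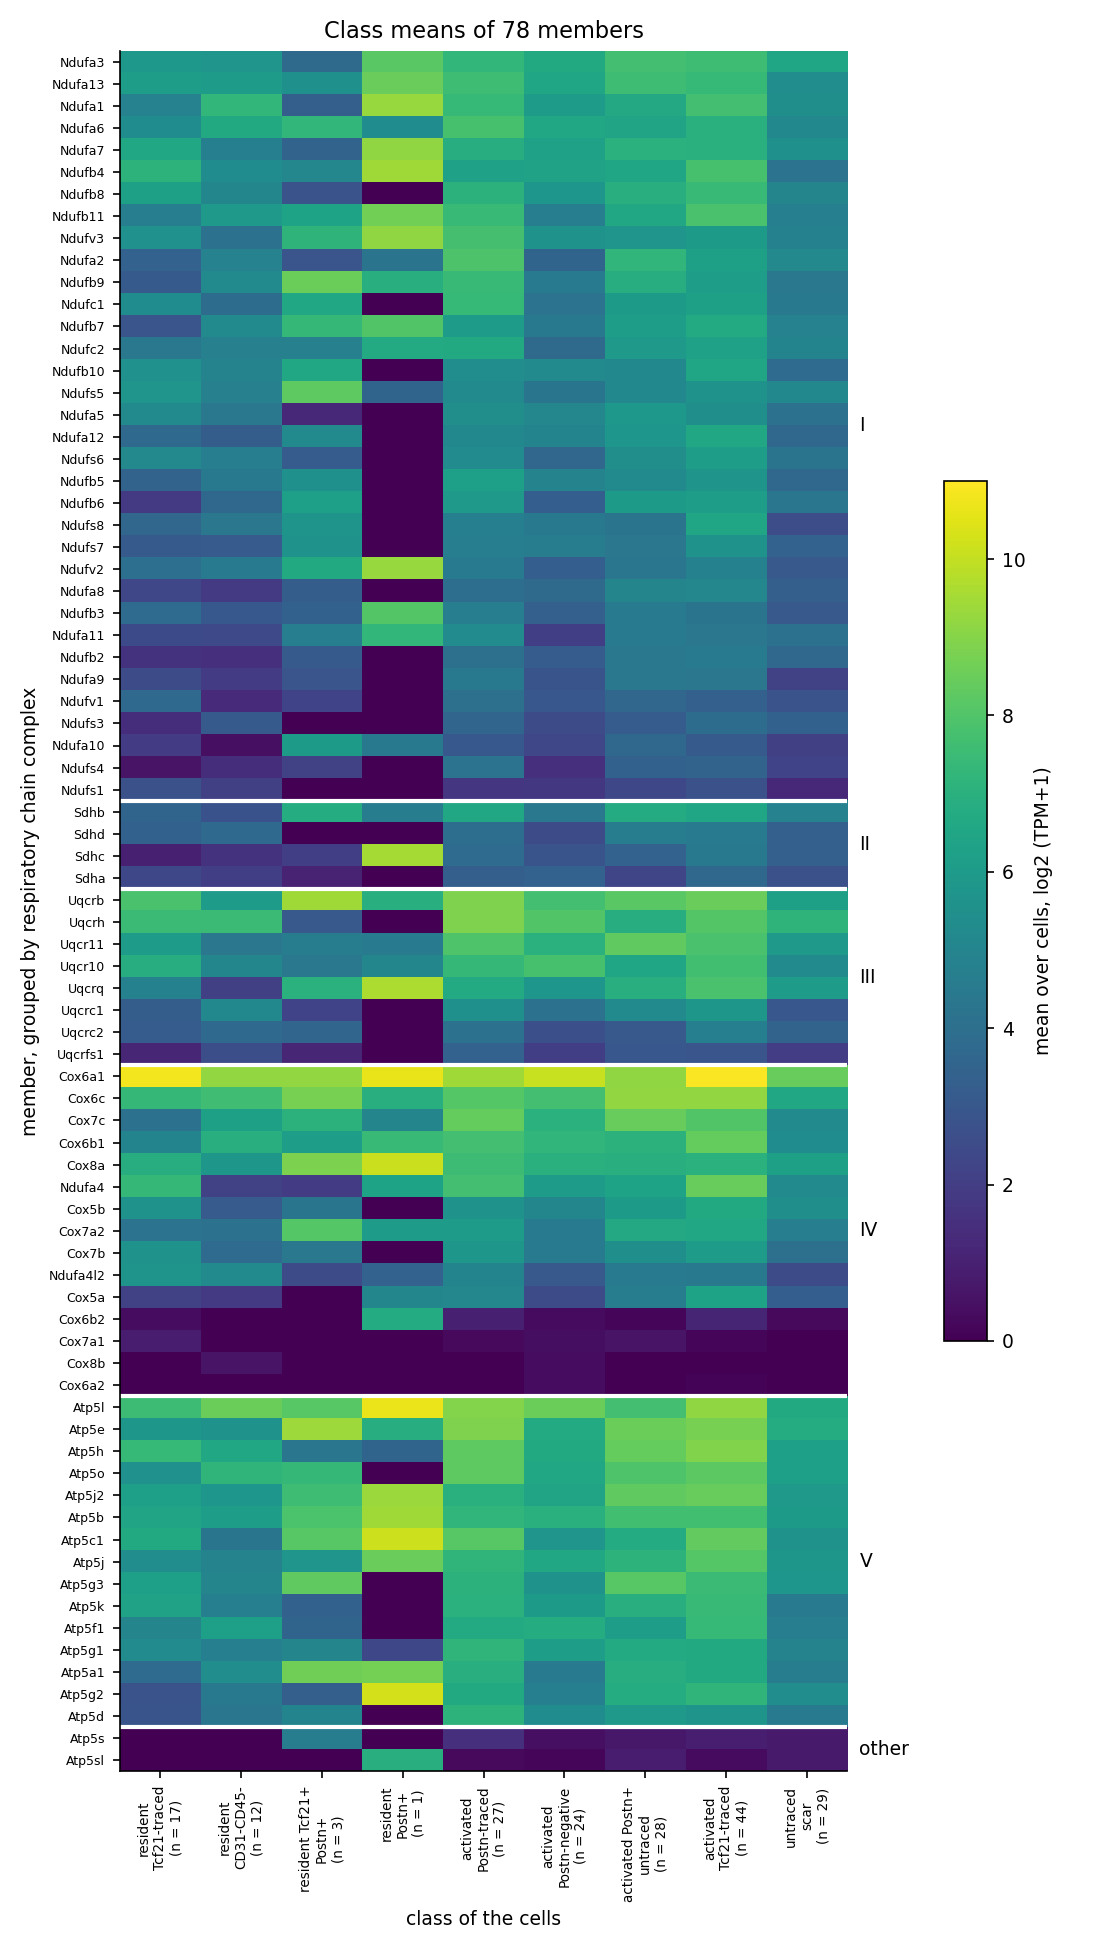
Class means of members in log2(TPM+1), with the members shown in rows by complex and classes in columns. Activated Tcf21-traced and Postn-traced cells hold the highest mean for 36 and 22 of the 79 members among the 7 classes of at least 10 cells, against 16.3% and 26.7% of all genes, or for 30 and 20 without the cells that stood apart, against 14.4% and 24.3%.

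Compared over the 7 classes of at least 10 cells, activated Tcf21-traced cells had the highest mean for 36 of 79 members, against 16.3% of all genes, Postn-traced cells for 22, against 26.7%, and untraced Postn-positive cells for 14, against 19% of all genes. Scar cells were highest for 0 members, against 9.78% of all genes. Without the cells that stood apart these counts were 30, 20, 18 and 5, against 14.4%, 24.3%, 18.7% and 16.6% of all genes. Genes detected per cell had class medians of 3077.5, 3575, 3222.5 and 3115 in those 4 classes, and of 2216 and 2047.5 in resident Tcf21-traced and CD31-CD45- cells.

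The comparison of Postn-traced with Postn-negative activated cells, both of capture Jul29, sets cells that carry the Postn trace beside activated cells labelled Postn-negative. The median of class means was 6.29 in Postn-traced and 4.60 in Postn-negative cells, and the median member was 1.09 log2 units higher in Postn-traced cells. Of the members, 44 of 79 were over 1 unit higher, against 16.7% of all genes, and 0 were over 1 unit lower, against 2.35% of all. Among genes detected in at least 50% of cells, 44.6% were that much higher, beside 38 of the 63 members at that abundance. By complex, 21 of 35 members of complex I, 2 of 4 of complex II, 4 of 8 of complex III, 6 of 15 of complex IV and 10 of 15 of complex V were over 1 unit higher. The largest differences were those of Ndufa2 (7.95 against 3.56, a difference of 4.39), Ndufa11, an accessory subunit of the membrane arm (5.30 against 2.06, a difference of 3.24), and Ndufc1 (7.36 against 4.21, a difference of 3.15, which turned negative among cells with the member detected). Those of Ndufa2 and Ndufa11 exceeded the larger of the SDs between cells, and those of the other members did not. With the log of mean TPM far fewer members were over 1 unit higher and some were over 1 unit lower, as given in the last section.

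Postn-traced cells also had more genes detected, a median of 3575 against 2295. In 9 pairs of cells matched to within 15% in genes detected (medians 2467 and 2481), the median member difference was 0, with 18 members over 1 unit higher and 19 lower. In the same pairs 11.9% of all genes were that much higher and 11.9% lower, and of common genes 23.6% and 29.2%, beside 14 and 16 of the 63 common members. The share of cells with a member was a median of 13.4 points higher in Postn-traced cells, against 3.70 points for all genes, and the level in the cells that had it differed by a median of 0.02, against -0.34 for all genes found in at least 3 cells of both classes. Direction turned in the matched cells for the medians of complex IV (-0.03) and complex V (-0.04), and with the log taken of the mean TPM it turned for complexes II (-0.18) and III (-0.01). In the matched cells, which are part of the cells these 3 members were chosen from, Ndufa2 was 4.01 higher, Ndufa11 2.36 and Ndufc1 2.01. Cox6a1 (-0.67), Uqcr10, a small subunit of complex III (-0.46), and Sdha (-0.15) were the members lowest against Postn-negative cells by the naming rule. In the matched cells they were lower by 2.84, 1.30 and 1.95. The sign of Cox6a1 turned among cells with the member detected and that of Uqcr10 after centring, which subtracts from a cell's values their median over its detected genes, while that of Sdha turned under centring, with a pseudocount of 0.1 and with medians over cells. The centring raised the median difference over all genes to 0.71 and that over members to 1.61.

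In capture Nov4, 44 activated Tcf21-traced cells were set beside 19 untraced Postn-positive ones. The median of class means was 6.45 in the former and 6.74 in the latter, and the median member was 0.21 log2 units lower in Tcf21-traced cells. Over 1 unit higher were 6 of 79 members, against 3.34% of all genes, and 10 were over 1 unit lower, against 5.05% of all. Among the common genes these shares were 10.8% and 10%, beside 6 and 9 of the 63 common members. Ndufa4 (8.46 against 6.64, detected in 42 of 44 and 14 of 19 cells), Uqcrc2, a core protein of complex III (4.75 against 3.16), and Ndufs8 (6.51 against 5.20) were the highest against untraced cells, with differences of 1.81, 1.60 and 1.30. That of Ndufa4 turned negative among cells with the member detected. Ndufa2 (6.26 against 7.72), Atp5d, the delta subunit of the stalk (5.70 against 7.06), and Ndufa10, an accessory subunit of complex I (3.10 against 4.44), were the lowest, by 1.46, 1.35 and 1.34. These 3 kept their sign under each alternative that could move them.

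No member differed by more than the larger of the SDs between cells, whose median was 3.36. In 19 pairs of cells matched on genes detected the median was 0.02, with 15 members over 1 unit higher and 10 lower, against 6.57% and 5.33% of all genes and 16.5% and 9.85% of common genes, beside 12 and 9 of the 63 common members. Centring each cell gave a median of -0.47, and of -0.26 over all genes. By complex the medians were -0.17 for complex I, -0.29 for II, 0.20 for III, -0.24 for IV and -0.45 for V. The sign turned in the matched cells for complexes I (0.07) and V (0.03), and for complex V also with medians over cells (0.03). It turned for complex II with the log of mean TPM (0.15) and among cells with the member detected (0.41), and for complex III under centring (-0.06) and among cells with the member detected (-0.16).

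In uninjured hearts, Tcf21-traced and CD31-CD45- cells, both of capture Jul24, differed in single members more than in the whole. The median of class means was 4.69 in Tcf21-traced and 4.44 in CD31-CD45- cells, with a median difference of 0.28. Over 1 unit higher in Tcf21-traced cells were 20 of 79 members, against 8.65% of all genes, and 18 were over 1 unit lower, against 6.55% of all. Among genes detected in at least 50% of cells these shares were 26.9% and 15.1%, beside 17 and 16 of the 63 members at that abundance. Ndufa4 stood out at 7.33 against 2.13, a difference of 5.20 that alone exceeded the larger SD between cells. It was detected in 15 of 17 Tcf21-traced cells (88.2%, 63.6 to 98.5) and 4 of 12 CD31-CD45- cells (33.3%, 9.92 to 65.1), and it was higher by 4.74 in 12 matched pairs. Uqcrq, a small subunit of complex III (4.85 against 2.09, 9 of 17 and 3 of 12 cells), was higher by 2.76.

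Ndufa1, an accessory subunit of the membrane arm (4.86 against 7.28), Ndufb7 (2.90 against 5.26) and Ndufb9 (3.11 against 5.27), both accessory subunits of the same arm, were lower in Tcf21-traced cells by 2.42, 2.37 and 2.16. The sign of Ndufb9 turned with the log of mean TPM and among cells with the member detected. Those of Ndufa4, Uqcrq, Ndufa1 and Ndufb7 did not turn under any alternative that could move them. Complex III had a median of 0.84, complex IV of 0.38, complex I of 0.15 and complex II of 0.01, the last -1.31 among cells with the member detected. Complex V had 0.28, but its sign turned under 4 alternatives, with -0.15 for the log of mean TPM, -0.61 for medians over cells, -0.05 in matched cells and -0.78 among cells with the member detected. Genes detected differed little, with medians of 2216 and 2047.5, and in the matched cells the median member difference was 0.26, with 22 members over 1 unit higher and 22 lower, against 8.71% and 7.88% of all genes. Of common genes 23.6% and 19.9% were, beside 17 and 20 of the 63 common members.

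**Figure D4:**
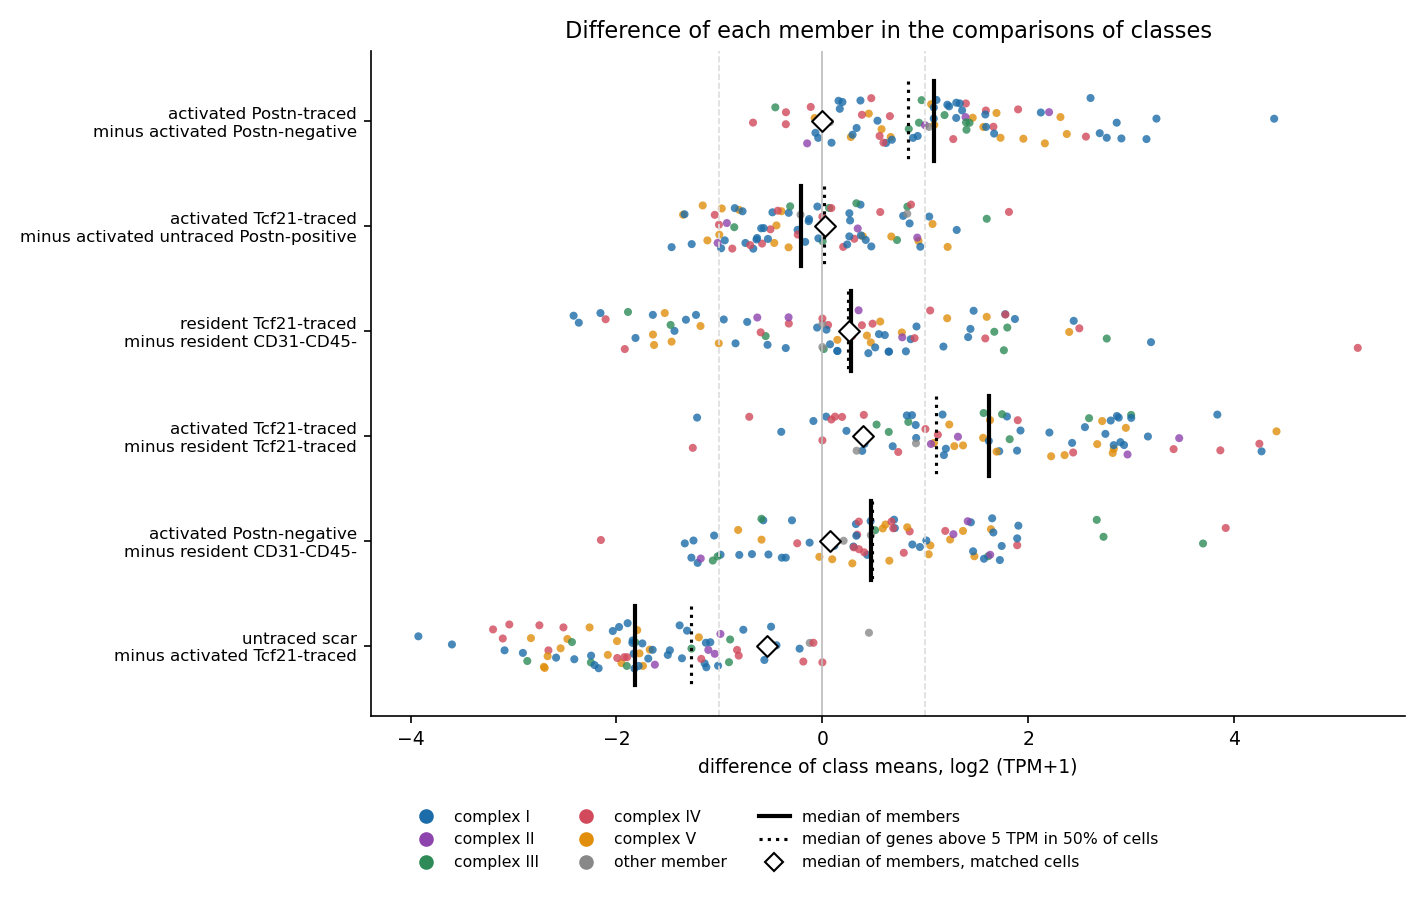
Differences of class means in log2(TPM+1) for the members in each of the 6 comparisons, 1 point per member, coloured by complex, with the median of members, of the 1645 common genes and of members in matched cells. In matched cells the medians lie nearer 0 except between the resident classes, where 0.28 and 0.26 are alike.

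The same 44 activated and 17 resident Tcf21-traced cells, which serve in the preceding comparisons too, were set against each other. Tcf21-traced cells a week after infarction had higher levels of most members than Tcf21-traced cells of uninjured hearts. The median of class means was 6.45 in activated and 4.69 in resident cells, and the median member was 1.62 log2 units higher. Over 1 unit higher were 53 of 79 members, against 16.9% of all genes, and 2 were over 1 unit lower, against 2.65% of all. Among the 1645 common genes 53.1% were that much higher, beside 46 of the 63 common members. All 15 members of complex V and all 4 of complex II were over 1 unit higher, as were 22 of 35 of complex I, 5 of 8 of complex III and 7 of 15 of complex IV. With the log of mean TPM the median and the number of members over 1 unit higher were far smaller, as given in the last section. Injury and capture day cannot be told apart here, because all resident cells came from capture Jul24 and all activated Tcf21-traced cells from Nov4.

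The largest differences were those of Atp5g2 (7.20 against 2.79, a difference of 4.41), Ndufb6, an accessory subunit of the membrane arm (6.15 against 1.88, a difference of 4.27), and Cox5a, a matrix-side subunit of complex IV (6.39 against 2.15, a difference of 4.24), and these 3 exceeded the larger SD between cells. They were detected in 38, 37 and 37 of 44 activated cells and in 7, 4 and 5 of 17 resident cells. In 14 pairs of cells matched on genes detected they were higher by 1.38, 3.50 and 2.84, and the sign of Ndufb6 turned among cells with the member detected. Ndufa4l2 (4.43 against 5.69) was lower by 1.26, and by 2.87 in matched cells. Ndufs5, an accessory subunit of complex I, was at -0.09, with a sign that turned with medians over cells, a pseudocount of 0.1 and centring.

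In the matched pairs, whose medians were 2262 and 2263 genes detected, the median member difference was 0.39, with 23 members over 1 unit higher and 12 lower, against a median of 0 and shares of 8% and 8.36% for all genes. For common genes the median was 0.16 and the shares 25.2% and 21.6%, beside 19 and 11 of the 63 common members. Complex V had 6 members over 1 unit higher and 0 lower there, with a median of 0.81, and complex II a median of 1.57, while complexes I (0.15), III (0.13) and IV (0.32) lay nearer 0. Among cells with the member detected the median was 0.11, against -0.40 for all genes, and the medians of complexes I (-0.19), II (-0.40) and III (-0.07) turned sign, while that of complex V was 0.85. The share of cells with a member was a median of 17.5 points higher in activated cells, against 2.81 for all genes. Members took a median of 2.88% of TPM in activated and 2.46% in resident Tcf21-traced cells, or 2.82% and 2.48% in the matched cells. Centring each cell raised the median of all genes to 0.61 and that of members to 2.07.

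Activated Postn-negative cells of Jul29 were set beside resident CD31-CD45- cells of Jul24, each class also serving in a comparison above. The median of class means was 4.60 against 4.44, with a median difference of 0.47. Over 1 unit higher were 26 of 79 members, against 10.3% of all genes, and 9 were over 1 unit lower, against 5.2% of all. Of common genes 34.2% were that much higher, beside 21 of the 63 common members. Injury and capture day cannot be told apart in this pair of classes either.

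Ndufa4 (6.05 against 2.13, 19 of 24 and 4 of 12 cells), Uqcrq (5.78 against 2.09) and Uqcr10 (7.79 against 5.05) were higher by 3.92, 3.70 and 2.73, and by 3.19, 2.72 and 1.67 in 11 matched pairs. That of Ndufa4 alone exceeded the larger SD between cells, and it rests on the low level of Ndufa4 in resident CD31-CD45- cells, which also sets the comparison within uninjured hearts. Ndufa4l2 (3.05 against 5.20), Ndufa2 (3.56 against 4.90) and Ndufv2, a core subunit of complex I (3.29 against 4.56), were lower by 2.15, 1.34 and 1.27, and by 3.42, 2.25 and 2.31 in matched cells. These 6 members did not change sign under the alternatives that could move them. Complex II had the highest median, 1.34, then complex III with 1.06, complex V with 0.65, complex IV with 0.41 and complex I with 0.33.

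The medians of complexes I (-0.27), II (-0.04), IV (-0.01) and V (-0.21) turned sign with the log of mean TPM, that of complex I also in matched cells (-0.29), and those of complexes II (-0.27), IV (-0.01) and V (-0.50) among cells with the member detected. Complex III was above 0 throughout. In the matched pairs the median member difference was 0.08, with 18 members over 1 unit higher and 18 lower, against 9.78% and 8.59% of all genes. Of common genes 27.5% and 18.8% were, beside 14 and 17 of the 63 common members.

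The activated Tcf21-traced cells serve again beside the scar cells. With all cells, untraced scar cells of capture Nov11 had lower levels of nearly all members than the activated Tcf21-traced cells of Nov4. The median of class means was 4.59 in scar and 6.45 in Tcf21-traced cells, a median difference of -1.82, or -0.75 without the 6 scar cells that stood apart. Over 1 unit lower were 64 of 79 members, against 13.2% of all genes, and 0 were over 1 unit higher, against 1.11% of all. Without those cells 31 were over 1 unit lower, against 6.35% of all genes, and 0 higher, against 4.14%. Of common genes 61.7% were over 1 unit lower, beside 58 of the 63 common members, and without those cells 22.1%, beside 28 of the 63. With all cells, 30 of 35 members of complex I, 3 of 4 of complex II, 6 of 8 of complex III, 10 of 15 of complex IV and 15 of 15 of complex V were over 1 unit lower, and without the 6 cells 15, 0, 2, 8 and 6 were. With the log of mean TPM fewer members were over 1 unit lower and some were over 1 unit higher, as given in the last section. Class and capture cannot be told apart here, as each class came from its own capture.

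Ndufs8 (2.58 against 6.51) differed most, by -3.92, or -3.25 without the 6 cells and -3.97 in 23 matched pairs, and with all cells it alone exceeded the larger SD between cells. It was detected in 12 of 29 scar cells, or 12 of 23, and 35 of 44 Tcf21-traced cells. Ndufb4, an accessory subunit of the membrane arm (4.21 against 7.81), differed by -3.60, or -2.50 without the 6 cells and -2.15 in matched pairs. Ndufa4 (5.26 against 8.46) differed by -3.20, or -2.27 and -2.11, with a sign that turned among cells with the member detected. Cox5a (-3.10, or -2.54 without the 6 cells), Cox6b1 (-3.04, or -1.98) and Cox6a1 (-2.52, or -0.85) were lower as well, and the difference in Cox6a1 rested mostly on those cells. The signs of Ndufa11 (-0.22, or 0.42) and Ndufs5 (-0.50, or 0.30) turned without them.

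Genes detected had medians of 3115 in scar and 3077.5 in Tcf21-traced cells, with means of 2548 and 3242. In the 23 matched pairs the median member difference was -0.53, with 0 members over 1 unit higher and 26 lower, against a median of 0 and shares of 5.94% and 6.34% for all genes. For common genes the median was -0.28 and the shares 9.91% and 21.6%, beside 0 and 24 of the 63 common members. Complex IV was lowest there at -1.15 with 8 members over 1 unit lower, followed by complexes V (-0.63), II (-0.45), I (-0.44) and III (-0.33). All 5 medians were below 0 under each of the 10 alternatives. Among cells with the member detected the median was -0.23, against 0.10 for all genes, and -0.26 without the 6 cells, against 0.06. The share of cells with a member was a median of 21.2 points lower in scar cells, against 2.27 for all genes, or 7.71 without the 6 cells, against 0.198. Members took a median of 2.16% of TPM in scar cells against 2.88%, or 2.18% against 2.80% in the matched cells. Centring each cell took the median of all genes to -0.95 and that of members to -2.65.

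Marker genes differed in these comparisons too, and those past 1 unit are given here. Against Postn-negative cells, Postn-traced cells differed in Tagln (4.17), Col1a1 (3.90), Col3a1 (3.55), Acta2 (3.29), Col1a2 (2.81) and Tcf21 (-2.68). Activated Tcf21-traced against untraced Postn-positive cells gave Tcf21 (1.62), Pdgfra (4.71 against 3.22), Acta2 (-1.20), Col1a1 (-1.23) and Tagln (-2.12), and the resident classes Pdgfra (1.85), Acta2 (1.08) and Lyz2 (-1.03). Activated and resident Tcf21-traced cells differed in Tagln (3.62), Acta2 (2.59), Col1a1 (1.93), Col1a2 (1.85), Col3a1 (1.60), Dcn (-1.15), Tek (-1.22) and Pdgfra (-2.95), and Postn-negative and resident CD31-CD45- cells in Tcf21 (3.35), Smtn (1.42) and Lyz2 (-1.03). Both Lyz2 differences rest on 1 of the 12 resident CD31-CD45- cells, the cell with at least 3 myeloid markers. Over that class the summed myeloid list had a median of 0 and a highest value of 10546 TPM. Scar cells had more of the epicardial marker Wt1 than Tcf21-traced cells (1.80 against 0.24, 6 of 29 and 1 of 44 cells, or 2.17 without the 6 cells) and less of Tcf21 (1.52 against 4.01), Acta2 (1.80 against 3.74), Smtn (0.68 against 2.38), Pdgfra (3.32 against 4.71) and Tagln (2.96 against 4.05). Without the 6 cells these 5 differed by -2.10, -1.71, -1.52, -0.53 and -0.64. Whether the make-up of the classes bears on the members was not tested.

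**Figure D5:**
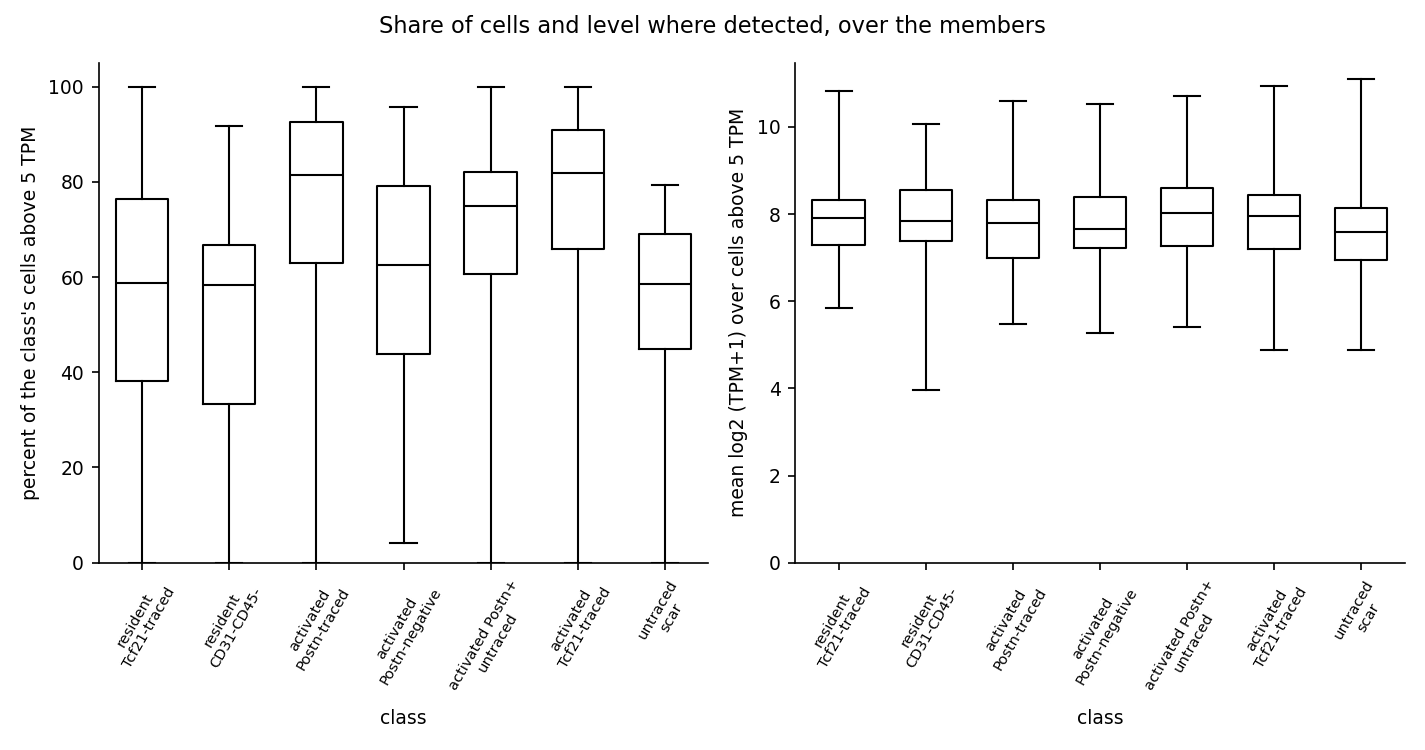
Percent of the cells of a class with a member above 5 TPM, and mean log2(TPM+1) over the cells that have it, as boxes over the members with lines to the lowest and highest. The class medians of the level lie between 7.59 and 8.02.

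Lists of genes near the members in function were set over the same comparisons, and their likeness to the members was not tested. The 8 respiratory chain genes outside the name patterns (Cox4i1, Cox4i2, Cox7a2l, Cyc1, Cycs, Ndufab1, Usmg5 and Atpif1), led by Cox4i1 with a mean of 9.18, had median differences of 1.43 for Postn-traced against Postn-negative cells, -0.35 for Tcf21-traced against untraced Postn-positive cells and 0.51 between the resident classes. Activated against resident Tcf21-traced cells gave 1.19, Postn-negative against resident CD31-CD45- cells 0.37, and scar against Tcf21-traced cells -2.02. In the same order, 14 citric acid cycle genes, led by Mdh2, had 0.95, -0.15, 0.19, 1.43, 0.67 and -1.04. For 16 glycolysis genes the medians were 1.04, -0.02, -0.03, 1.30, 0.45 and -0.75. Over 1 unit higher in activated than in resident Tcf21-traced cells were 5 of 8 genes outside the patterns, 8 of 14 of the citric acid cycle (2 lower), 9 of 16 of glycolysis and 4 of 7 of uncoupling and transport, against 16.9% of all and 53.1% of common genes. Over 1 unit lower in scar cells were 6 of 8, 7 of 14, 7 of 16 and 6 of 7 of these genes, against 13.2% of all and 61.7% of common genes. Without the 6 cells 4, 1, 5 and 3 were (with 2 of glycolysis higher), against 6.35% and 22.1%, and the medians of these 4 lists were -0.72, -0.44, -0.59 and -0.93. For 7 uncoupling and transport genes, led by Slc25a4, they were 0.72, -0.31, 0.75, 1.18, 0.87 and -1.81.

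The 37 assembly factors were sparse, with a median of mean levels of 0.81, and their medians were 0.33, -0.13, 0.12, 0.39, 0.20 and -0.21. The 11 regulators of mitochondrial biogenesis were sparser at 0.55, with Pprc1 the most abundant and Ppargc1a, the gene of the coactivator PGC-1alpha, detected in 1 cell. Their medians were 0.22, 0.15, 0.16, 0, 0 and -0.14, at levels where most cells have none of a gene's signal. Over all cells the mean member level followed the lists outside the patterns (r = 0.79), of assembly factors (0.77), of the citric acid cycle (0.75) and of glycolysis (0.77) more than the fibroblast markers (0.44), among cells that share captures and preparation. In Jul24, Jul29, Nov4 and Nov11 the values were 0.38, 0.66, 0.61 and 0.92 for the genes outside the patterns, 0.21, 0.68, 0.72 and 0.88 for assembly factors, 0.19, 0.75, 0.63 and 0.91 for the citric acid cycle, 0.34, 0.73, 0.61 and 0.89 for glycolysis, and 0.21, 0.32, 0.26 and 0.72 for fibroblast markers. Without the cells that stood apart the Nov11 values of these 5 lists were 0.81, 0.79, 0.84, 0.71 and 0.32. The same 5 lists also followed the number of other genes detected. Over all cells their r with that number was 0.77, 0.82, 0.80, 0.80 and 0.46, in the same order. Their part in the differences of the members was not tested.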

How the data were processed

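The authors deposited log2 values of expression plus 1 for 185 cells, with 3 further columns that were not used. Per the submitters' notes, reads were aligned to mm10 with Bowtie 1.0.0 and quantified with eXpress 1.5.1, which shares multi-mapping reads by probability, so that near-identical copies are uncertain. The title names FPKM, but cell sums of 999257 to 1000000 show TPM. Depth per cell is unknown, and genes above 5 TPM stand in for it. Classes and captures follow the labels. Class means, differences, exact binomial intervals and correlations were computed with Python 3.11.15, NumPy 2.4.6, pandas 2.3.3 and SciPy 1.17.1, drawn with Matplotlib 3.10.9, and tested on simulated data. Members named are all isoform families (Cox6a, Cox6b, Cox7a, Cox8, Ndufa4, Atp5g), the Sdh genes, the highest of each complex, and per comparison the 3 most positive and 3 most negative differences among members above 5 TPM in at least 50% of the higher class. Others named serve as examples, and 1 member is counted in the group values but not reported here. Members, 7 marker lists and 6 other lists were chosen with earlier results of these data known. Alternatives were the log of mean TPM, medians over cells, pseudocounts of 0.1 and 5, centring, rescaling without the 50 highest genes, leaving out low cells, matching within 15% of genes detected, common members, and cells with the member detected. Restriction to common members cannot move the difference of a single member. Leaving out low cells removed cells of capture Nov11 alone, so among the comparisons it could move only that of scar cells.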

Additional observations from a re-analysis of the deposited data

Results flagged for a closer look

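For 7 of 79 members the difference between infarcted and uninjured hearts had opposite signs, each past 1 log2 unit, in Tcf21-traced cells and in Postn-negative against resident CD31-CD45- cells. Ndufa1 was 2.86 log2 units higher after infarction in Tcf21-traced cells and differed by -1.25 in Postn-negative cells, a gap of 4.11. Further gaps were 4.37 for Ndufb11 (3.16 and -1.21), 4.14 for Ndufa2 (2.80 and -1.34), 3.61 for Uqcrc1 (2.59 and -1.02), 2.63 for Uqcrc2 (1.57 and -1.06) and 2.24 for Sdhd (1.05 and -1.18). Such opposite signs were found for 8.86% of members and for 1.83% of the 15733 genes, whose median level is 0.62 against 5.53 for members. The share over common genes was not taken. In matched cells the median member difference fell from 1.62 to 0.39 in Tcf21-traced cells. In Postn-negative against resident CD31-CD45- cells it fell from 0.47 to 0.08. Each class is 1 sample, cells of a class overlap, and the gap between the effects was not tested.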

How the results depend on the processing

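Values follow the order Postn-traced against Postn-negative, Tcf21-traced against untraced Postn-positive, the resident classes, activated against resident Tcf21-traced, Postn-negative against resident CD31-CD45-, and scar against Tcf21-traced cells, which gave medians of 1.09, -0.21, 0.28, 1.62, 0.47 and -1.82. With the log of mean TPM the medians were 0.085, -0.084, 0, 0.23, -0.17 and -0.66, and the members over 1 unit higher and lower were 8 and 5, 5 and 2, 13 and 9, 16 and 2, 16 and 7, and 5 and 20. These counts, and those below for pseudocounts, medians over cells and centring, have no share of all genes beside them. They describe the members alone. Shares for matched cells and without the low cells are given above. Matched cells gave 0, 0.021 and 0.39 for the comparisons of Postn-traced, untraced Postn-positive and activated against resident Tcf21-traced cells, then 0.076 and -0.53 for the last pair. In these the members over 1 unit higher and lower were 18 and 19, 15 and 10, 23 and 12, 18 and 18, and 0 and 26. Restriction to cells with the member above 5 TPM, an alternative chosen after the data had been seen, gave 0.019 (4 and 6), -0.020 between the resident classes (10 and 15), 0.11 (8 and 4), -0.044 (9 and 14) and -0.23 (1 and 6). In that order 73, 67, 70, 69 and 75 members were found in at least 3 cells of both classes. Over all genes so found, the counts were 479 and 1556 of 6026, and 545 and 610 of 2908. They were then 436 and 1365 of 4757, 585 and 665 of 3202, and 1190 and 682 of 7371. A pseudocount of 0.1 gave -0.33 (14 and 18) for Tcf21-traced against untraced Postn-positive cells, 0.44 between the resident classes and 0.71 for Postn-negative against resident cells. A pseudocount of 5 gave 0.74 (28 and 0) for Postn-traced cells and 0.18 between the resident classes. Medians over cells gave 0 between the resident classes and 0.16 (29 and 14) for Postn-negative cells. Against untraced Postn-positive cells, centring gave -0.47 (3 and 20) and members found in at least 50% of cells -0.33. Without the low cells the scar comparison gave -0.75 (0 and 31). The correlation with genes detected was 0.28 over all cells with percent of TPM in place of mean level, and -0.24 in place of 0.55 in resident Tcf21-traced cells. The cause was not tested. Of the other values computed under an alternative, 44 of the main results and 84 of the remaining ones moved little, and 24 of the remaining ones moved. No paired analysis was possible because no label names the mouse of a cell.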
